A study of Mus musculus with 18 samples.

Results

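Cdh1 and Dsc2 are 2 of the 7117 genes that carry a symbol of their own on the arrays, and 3 of the 16128 probes are annotated with one of them alone: probe 8095 for Dsc2, and probes 9806 and 9238 for Cdh1. They were chosen by name, with their ratios in these data already known, so every value of the pair is a description and carries no p-value. Kidney RNA of CD1 mice, an outbred laboratory stock, was measured on 18 two-channel cDNA arrays, 2 for each of 9 combinations of condition and duration. Treatment began at postnatal day 2 and lasted 1, 2 or 4 weeks, at a constant 11% oxygen (constant hypoxia), under oxygen switched between 21% and 11% every 4 min (intermittent hypoxia), or in normal air (normoxia). The labels name no genetic change in any group. Each array carried the kidney cDNA of 1 mouse labelled male, in Cy5, and of 1 mouse labelled female, in Cy3, both kept under the same condition, and the dyes were never exchanged.

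Cdh1 encodes E-cadherin, the classical cadherin of epithelia. Its extracellular part binds E-cadherin of the neighbouring cell in the presence of calcium, and its tail binds beta-catenin, p120-catenin and plakoglobin. Alpha-catenin links that complex to actin, which makes the adherens junction. In the kidney E-cadherin marks mainly the distal tubules and collecting ducts, while proximal tubules carry more of other cadherins. Dsc2 encodes desmocollin 2, a cadherin of the desmosome, where plakoglobin and plakophilins couple desmocollins and desmogleins through desmoplakin to keratin filaments. Desmocollin 2 is the desmocollin found most widely outside stratified epithelia.

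The value given throughout is the deposited log2 ratio of the channels of an array minus the median of that array over the 5751 features tested (named genes, or single probes with no symbol or several). A value of 0 is thus the median feature of that array. No source used here says which channel was divided by which, so a sign says nothing about males or females. Equal responses of both animals on an array cancel, and a ratio holds no expression level, so neither the abundance of the cadherins nor the cell types of the tissue can be read from it. Eif2s3y, a gene of the Y chromosome, had a centred value above 1 on 3 arrays, below -1 on 4 arrays and within 1 of 0 on the other 11 arrays, so the labelled sexes do not show as 1 sign over the series. On intermittent hypoxia 2 weeks A the label of the female channel names a 1-week animal, and on constant hypoxia 4 weeks A a treatment text gives 2 weeks. The deposited medians were -1.13 to -0.18 on constant hypoxia arrays, -0.12 to 0.01 on intermittent hypoxia arrays and -0.15 to 0.10 on normoxia arrays. A value was present for 81.8% to 88.8%, 42.9% to 65.7% and 41.0% to 67.9% of probes in these same conditions. Constant hypoxia and this other footing of its files cannot be told apart.

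The Dsc2 ratio stood lower at 2 weeks than at 1 week in constant hypoxia and in normoxia, and higher at later weeks in intermittent hypoxia. In constant hypoxia its values on arrays A and B were 0.51 and 0.36 at 1 week, 0.04 and -0.53 at 2 weeks, and -0.22 and 0.01 at 4 weeks. In intermittent hypoxia they were 0.06 and 0.29 at 1 week, 0.42 on array B at 2 weeks and 0.79 on array B at 4 weeks, with no value on array A at 2 or 4 weeks. In normoxia they were 0.69 and 0.56 at 1 week, -0.18 and -0.24 at 2 weeks, and -0.43 and -0.74 at 4 weeks. Both 4-week arrays of normoxia were therefore low, both 1-week arrays were high, and all 4 intermittent hypoxia values were positive.

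Over the weeks of normoxia the Dsc2 values did not overlap between durations and stood lower at each later one, an order that 2.75% of the 5751 features showed. The 4-week mean of normoxia was -0.58 ± 0.21 and the 1-week mean 0.63 ± 0.09 (SD, n = 2 each), a difference of -1.21 with a limma standard error of 0.24. That is several times the Dsc2 spread within groups (SD 0.20), and 0.661% of features differed by more in size. In constant hypoxia the 4-week mean was -0.11 ± 0.16 and the 1-week mean 0.43 ± 0.11 (SD, n = 2 each), a difference of -0.54 with a standard error of 0.24, and the arrays did not overlap. A 4-week group wholly below the 1-week group was common, at 23.7% of features in constant hypoxia and 26% in normoxia. In intermittent hypoxia the single 4-week value stood 0.61 above the 1-week mean (standard error 0.30), again without overlap, as for 21.7% of features.

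**Figure D1:**
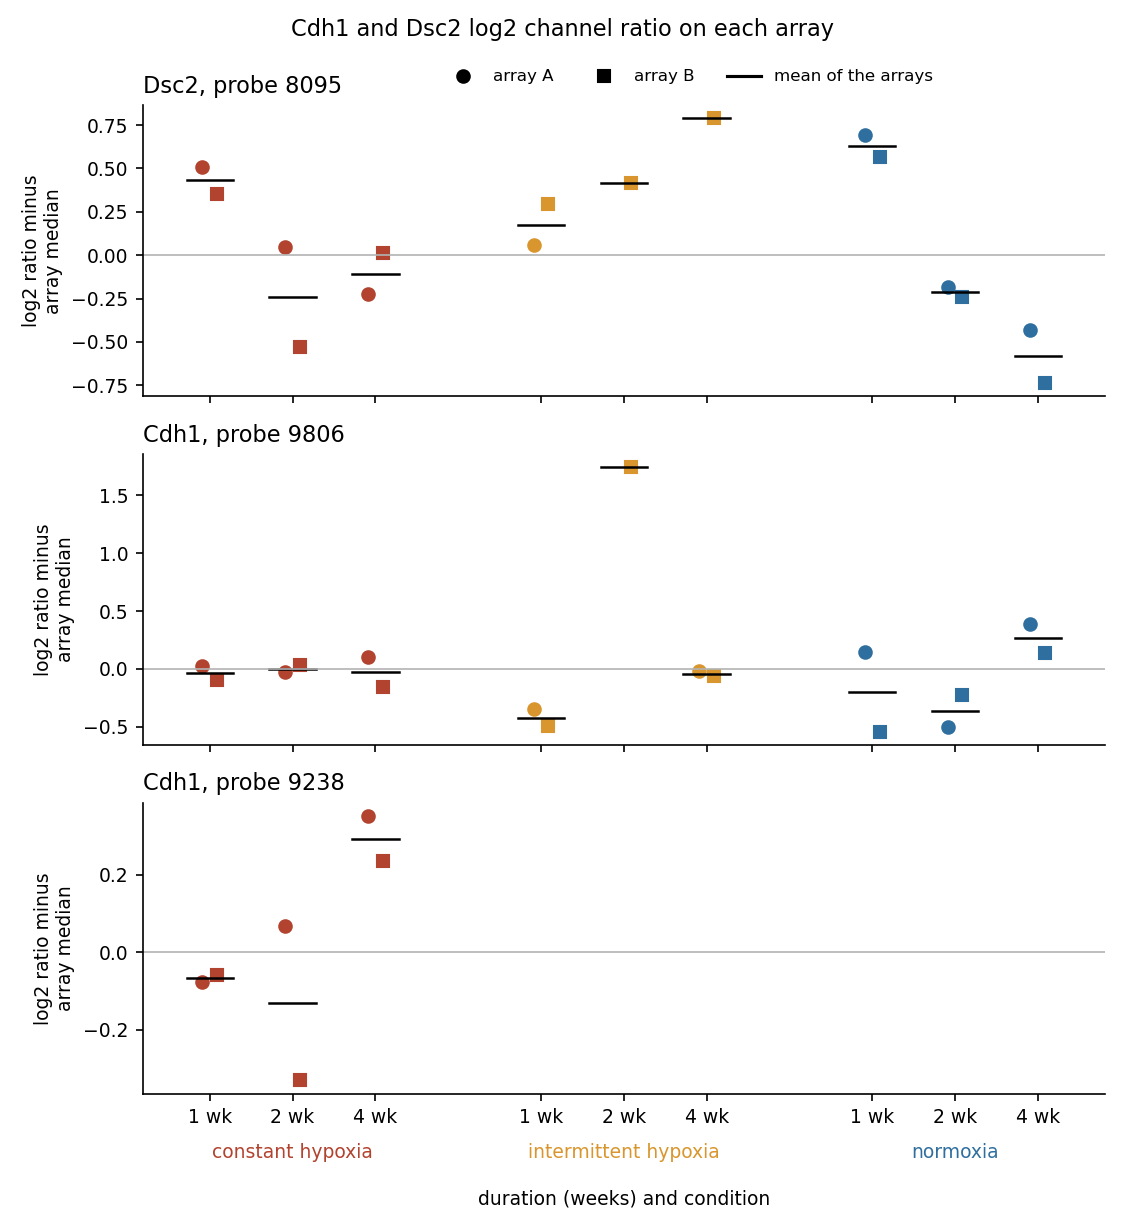
Log2 channel ratio minus the array median (vertical axis, unitless log2) of the Dsc2 probe and both Cdh1 probes by condition and weeks (horizontal axis); circles are arrays A, squares arrays B and bars the mean of a group's arrays. Dsc2 runs between 0.69 at 1 week and -0.74 at 4 weeks of normoxia and reaches 0.79 on 1 intermittent hypoxia array at 4 weeks, while Cdh1 probe 9806 stays between -0.54 and 0.39 apart from 1.74 on intermittent hypoxia 2 weeks B.

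Set against normoxia at the same duration, the difference of Dsc2 changed its sign between 1 and 4 weeks. At 1 week the difference was -0.20 for constant hypoxia and -0.45 for intermittent hypoxia (standard error 0.24 each), and every hypoxia array lay below both normoxia arrays, as for 8.9% of features. At 2 weeks it was -0.03 for constant hypoxia (standard error 0.24), and 0.63 for the 1 intermittent hypoxia array (standard error 0.30). At 4 weeks it was 0.48 for constant hypoxia (standard error 0.24) and 1.37 for the 1 intermittent hypoxia array (standard error 0.30), and every hypoxia array lay above both normoxia arrays, as for 7.27% of features. The regimes share these normoxia arrays, so their differences are not independent of each other. Without constant hypoxia 4 weeks A, the array whose labels disagree, the 4-week difference of constant hypoxia was 0.59, and on the values as deposited, which keep the low medians of the constant hypoxia arrays, it was -0.63.

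Averaged over the durations with equal weight, Dsc2 stood 0.08 above normoxia in constant hypoxia (standard error 0.14), less than its spread within groups, and -0.69 on the values as deposited. In intermittent hypoxia it stood 0.52 above normoxia (standard error 0.16). Of all features 1.55% differed by more in size, counted whatever their number of arrays, while Dsc2 had 1 array each at 2 and 4 weeks. The 4-week comparison carried most of the 0.52, since over 1 and 2 weeks alone the difference was 0.09. That comparison set array B, at 0.79, against a normoxia mean of -0.58. Over the arrays themselves Dsc2 averaged 0.03 ± 0.38 in constant hypoxia (n = 6), 0.39 ± 0.31 in intermittent hypoxia (n = 4) and -0.06 ± 0.57 in normoxia (SD, n = 6). A positive value on every intermittent hypoxia array was found for 10.5% of features. Ordered by group mean, Dsc2 was lowest in normoxia at 4 weeks and highest in intermittent hypoxia at 4 weeks; the 4 lowest groups, all of normoxia or constant hypoxia at 2 or 4 weeks, each overlapped the next in that order, except the last of them, constant hypoxia at 4 weeks.

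Cdh1 probe 9806 stayed close to the array median in constant hypoxia and was set apart by 1 array of intermittent hypoxia. In constant hypoxia its values on arrays A and B were 0.02 and -0.09 at 1 week, -0.03 and 0.03 at 2 weeks, and 0.11 and -0.15 at 4 weeks. In intermittent hypoxia they were -0.34 and -0.50 at 1 week, 1.74 on array B at 2 weeks with no value on array A, and -0.02 and -0.06 at 4 weeks. In normoxia they were 0.15 and -0.54 at 1 week, -0.50 and -0.22 at 2 weeks, and 0.39 and 0.13 at 4 weeks. Array B of intermittent hypoxia at 2 weeks was the highest of the 17 with a value, followed by normoxia 4 weeks A at 0.39, and the remaining 4 intermittent hypoxia values were negative.

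By condition, Cdh1 averaged -0.02 ± 0.09 in constant hypoxia (n = 6), 0.16 ± 0.91 in intermittent hypoxia (n = 5) and -0.10 ± 0.38 in normoxia (SD, n = 6). The difference from normoxia over durations was 0.08 for constant hypoxia (standard error 0.14), less than the Cdh1 spread within groups (SD 0.21), and -0.69 on the values as deposited. For intermittent hypoxia it was 0.53 (standard error 0.15) with the durations weighted equally, but -0.26 over 1 and 4 weeks, which leaves out the single 2-week value. By duration, constant hypoxia differed from normoxia by 0.16, 0.36 and -0.29 at 1, 2 and 4 weeks (standard error 0.25 each), and by -0.80, 0.13 and -1.40 on the values as deposited. Intermittent hypoxia differed from normoxia by -0.22 and -0.31 at 1 and 4 weeks (standard error 0.25 each), and by 2.10 at 2 weeks (standard error 0.30). The 1-week signs depended on the normoxia pair: without normoxia 1 week A the differences were 0.51 for constant and 0.12 for intermittent hypoxia, and without normoxia 1 week B they were -0.18 and -0.57.

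At 2 weeks both regimes lay above normoxia without overlap, as for 11.9% of features, and at 4 weeks both lay below it, as for 5.65%. With neighbours removed (the median of nearby probe numbers taken from each value), the differences were 0.14 and -0.19 at 2 and 4 weeks for constant hypoxia, and 0.81 and 0.03 for intermittent hypoxia. The 2.10 at 2 weeks was among the largest differences of that contrast, with 0.0696% of features differing by more, counted whatever their number of arrays. limma called 5 of the 5751 features there (0.0869%, Benjamini-Hochberg threshold 0.05 over all features): Cdh1, Cops8, Slc39a10, Zwint and probe 8724, which has no symbol of its own. Apart from Zwint, each of them had its 2-week intermittent hypoxia value on 1 array only, and nothing is read from the call of Cdh1, which was chosen with this value known. Between 1 and 4 weeks Cdh1 differed by 0.01 in constant hypoxia, 0.38 in intermittent hypoxia and 0.46 in normoxia (4 weeks minus 1 week, standard error 0.25 each). The change in normoxia depended on an uneven pair, since it was 0.81 without normoxia 1 week A and 0.12 without normoxia 1 week B.

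In the order of group means Cdh1 ran from intermittent hypoxia at 1 week, at -0.42, to intermittent hypoxia at 2 weeks, at 1.74. The 7 lowest groups each overlapped the next in that order except the uppermost, constant hypoxia at 2 weeks, which lay below normoxia at 4 weeks (0.26 ± 0.18, SD, n = 2). Of the 36 pairs of groups, 22 did not overlap, with 1 or 2 arrays in each group. So few arrays often fail to overlap, and no share over all features stands beside this count, so nothing is read from it.

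The other Cdh1 probe, 9238, had a value on the 6 constant hypoxia arrays and on no array of intermittent hypoxia or normoxia, and so entered no fit. Its values on arrays A and B were -0.08 and -0.06 at 1 week, 0.07 and -0.33 at 2 weeks, and 0.35 and 0.23 at 4 weeks. Both 4-week arrays stood above the other 4, an order whose share over all probes is not given and from which nothing is read. Of all probes, 598 (3.71%) were present on exactly these 6 arrays, and of the 40 probes within 20 numbers of 9238, 0 were. With only 40 probes that count cannot be told apart from the share over all probes, and nothing is read from it. On the 6 shared arrays the Cdh1 probes had the same sign on 2, and their Pearson r was -0.03 (n = 6). Probe 9806 hardly varied on these constant hypoxia arrays (SD 0.09), so they cannot show whether the probes share a course. Cdh1 probe 9806 and Dsc2 also shared little, with r = 0.03 over 16 arrays and the same sign on 5 of them. The 3 probes lie 568 to 1711 probe numbers apart, and all points of such a correlation share the array, its labelling and its centring.

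The ratios of these arrays run in stretches of the probe numbering. Over the 18 arrays the correlation of a probe with the next number was 0.21 to 0.85, and with the probe 24 numbers on 0.13 to 0.83. Each cadherin probe was therefore set against its neighbours, the probes up to 20 numbers to either side with a value on the same array. No source used here says where on the slide a probe number lies.

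Dsc2 moved largely with its neighbours, and stood farthest from them on intermittent hypoxia 4 weeks B and normoxia 2 weeks B. Its r with the neighbour median was 0.72 over 16 arrays, against a median of 0.62 (quartiles 0.42 and 0.79) for the 6518 probes kept, and it lay above that median on 8 arrays and below it on 8. In normoxia all 37 neighbours had a lower mean at 4 weeks than at 1 week, by -2.00 to -0.10 with a median of -0.67, and only 5 of them had a larger drop than the -1.21 of Dsc2. With the neighbour median taken from every value, this change of Dsc2 was -0.51 in normoxia and -0.30 in constant hypoxia. On intermittent hypoxia 4 weeks B its 0.79 lay above all 29 neighbours, which had a median of 0.05 and reached 0.45. This was the 1 array of 16 on which Dsc2 lay outside the range of its neighbours. No share over all probes stands beside that count, and nothing is read from it. The 4-week difference of intermittent hypoxia from normoxia was 1.00 with neighbours removed, and the average over durations 0.45. On normoxia 2 weeks B its -0.24 lay above 1 of 28 neighbours, whose median was 0.38, so there Dsc2 was low within its stretch. With neighbours removed, the differences from normoxia at 1, 2 and 4 weeks were -0.11, 0.21 and 0.10 in constant hypoxia (standard error 0.23 each), all within that error. In intermittent hypoxia they were -0.14, 0.49 and 1.00 (standard errors 0.23, 0.28 and 0.28).

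**Figure D2:**
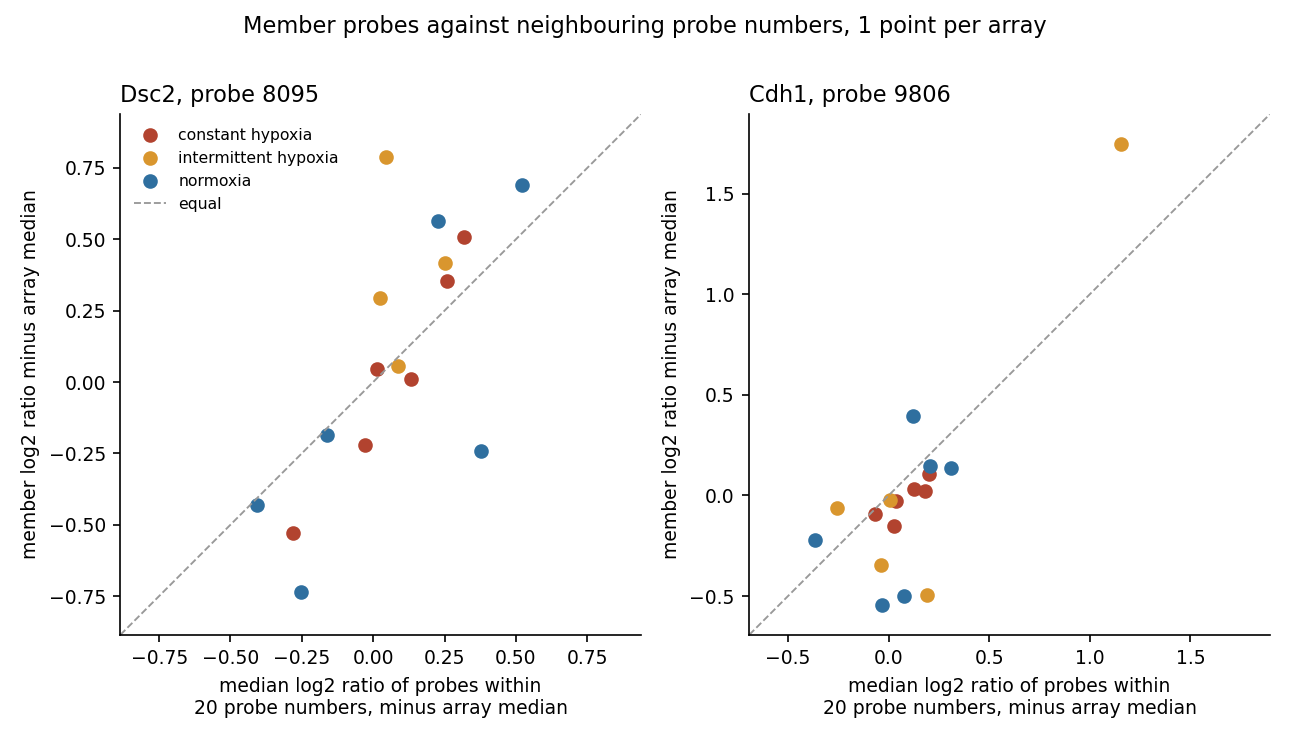
Centred log2 ratio of the Dsc2 probe (16 arrays) and of Cdh1 probe 9806 (17 arrays) on the vertical axis against the median centred log2 ratio of the probes within 20 probe numbers on the horizontal axis; each point is an array, coloured by condition, and the dashed line marks equality. Dsc2 stands at 0.79 over a neighbour median of 0.05 on intermittent hypoxia 4 weeks B, and Cdh1 at 1.74 over 1.15 on intermittent hypoxia 2 weeks B.

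The high Cdh1 value sat in a stretch of high values. On intermittent hypoxia 2 weeks B all 26 neighbours of probe 9806 were positive, from 0.01 to 2.32 with a median of 1.15, and Cdh1 at 1.74 lay above 20 of them. With neighbours removed, the 2-week difference from normoxia was 0.81 in place of 2.10 and limma no longer called it, and the average over durations was 0.21. The r of Cdh1 with its neighbour median was 0.82 over 17 arrays, but 0.31 over the 16 without that array. By rank (Spearman's rho) the 2 values were 0.64 and 0.57, so the ranks changed little. Of the 6518 probes kept, 79.5% had a lower r than the 0.82 of Cdh1. Cdh1 probe 9806 lay below its neighbour median on 13 of the 17 arrays, most deeply on intermittent hypoxia 1 week B, at -0.50 against 0.19. Probe 9238 had r = 0.17 with its own neighbours over 6 arrays and lay below all 38 and all 36 of them on constant hypoxia 2 weeks A and B. No share over all probes is given for such a place either, and nothing is read from it.

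**Figure D3:**
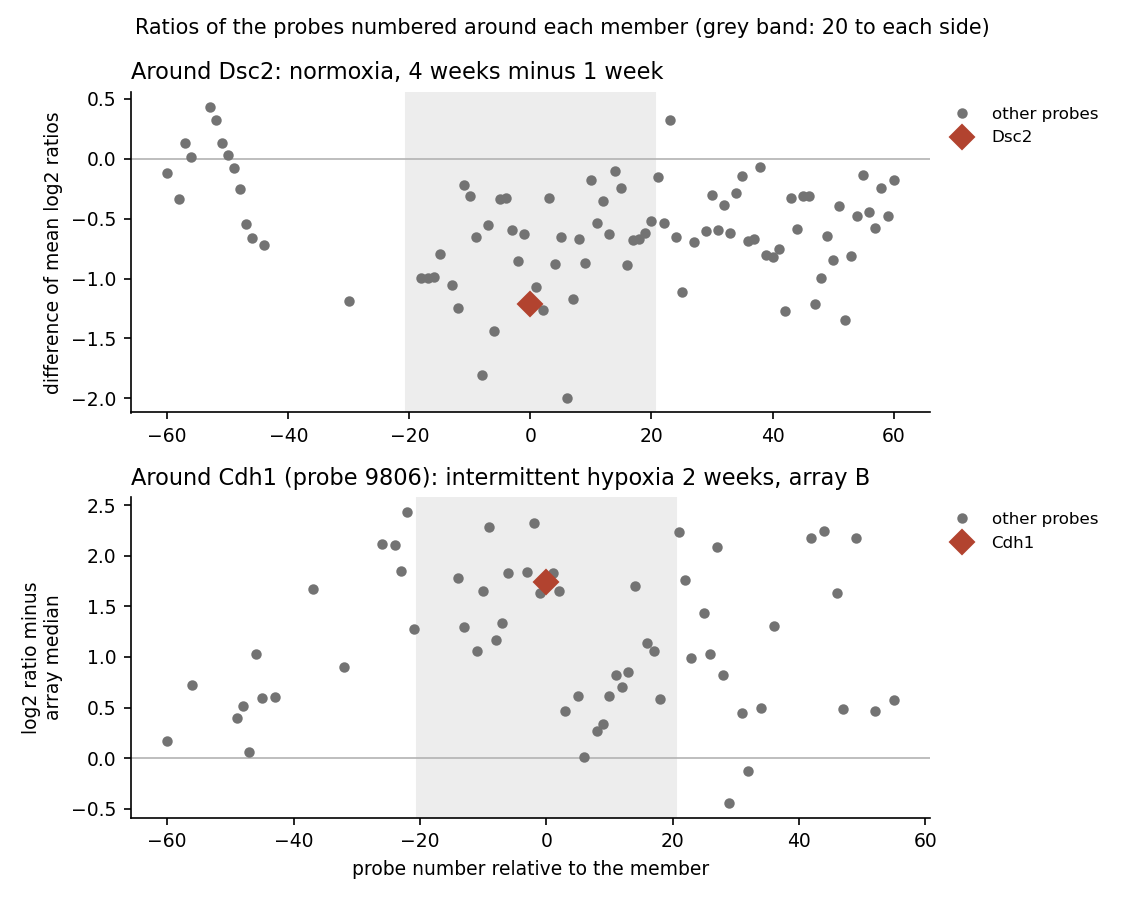
Values of single probes (grey) and of the cadherin probe (red diamond) against probe number relative to it, with the neighbours used shaded; the upper panel gives the difference of mean log2 ratios between 4 weeks and 1 week of normoxia around Dsc2, the lower panel the centred log2 ratio on intermittent hypoxia 2 weeks B around Cdh1 probe 9806. All 37 shaded neighbours are negative around Dsc2 (-1.21) and all 26 are positive around Cdh1 (1.74).

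The genes with the course most like that of each cadherin were found by Pearson's r over at least 15 shared arrays, among 3515 genes for Dsc2 and 3921 for Cdh1. For Dsc2 they were Ubap2 (r = 0.86, n = 15), Dstyk (0.84), 1700021K19Rik (0.84), Nfkbiz (0.83) and Hbp1 (0.83, n = 16 each), and the most opposed were Nelfa (-0.73, n = 15), Eif2b2 (-0.73, n = 15) and Dglucy (-0.71, n = 16). Of the genes most like it, Dstyk, 1700021K19Rik, Nfkbiz and Hbp1 have a probe 47 to 181 numbers away. Of the 50 genes most like Dsc2, 48% lie within 500 numbers, against 9.79% of all genes compared.

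For Cdh1 they were Brd3 (r = 0.91, n = 16), Pik3r1 (0.89, n = 16), Psmd6 (0.88, n = 17), Dhx15 (0.86, n = 15) and Ewsr1 (0.86, n = 16), and the most opposed were Eea1, Emg1 and Rab11a (each -0.88, n = 17). These rest in large part on 1 array: without intermittent hypoxia 2 weeks B the 5 high values were 0.39 to 0.77 and the 3 low ones -0.51 to -0.41. Of the 50 genes most like Cdh1, 22% lie within 500 numbers, against 8.59% of all. With neighbours removed, 0 of the 5 genes named as most like remained among the top 5, for Dsc2 and for Cdh1 alike. Neighbouring probes share their stretch of an array, which all of these correlations include.

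The partners of both cadherins were followed through 6 lists of junction and epithelial genes, of which 47 of 172 members passed the filter (a value on at least 15 arrays and in every group) besides Cdh1 and Dsc2. limma called 0 of the 47 in any difference of a hypoxia regime from normoxia, over durations or within one; at an unadjusted p under 0.05 over durations there were 5 for constant and 0 for intermittent hypoxia. The same differences over durations called 0 of all 5751 features (0%), with 433 and 237 below 0.05 unadjusted, and within durations at most 0.0869% of features were called, with 0.0174% and 0.0348% for constant hypoxia at 2 and 4 weeks. Without constant hypoxia 4 weeks B, 7 of the 47 were called over durations and 10 at 4 weeks in constant hypoxia, and without intermittent hypoxia 2 weeks A, 8 were called at 2 weeks in intermittent hypoxia. These counts came with 567, 658 and 608 calls over all 5751 features. On the values as deposited all 47 were called in constant hypoxia over durations, and 39, 0 and 46 at 1, 2 and 4 weeks, where 5570 features were called over durations and 4466, 1 and 5247 at these weeks. The median difference of the 47 was -0.08 for constant hypoxia and 0.04 for intermittent hypoxia, against -0.04 and 0.01 over all features.

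Of the adherens junction list 12 of 26 genes were measured. Ctnnb1, which encodes beta-catenin, differed from normoxia by -0.02 in constant and 0.11 in intermittent hypoxia, and Ctnna1, alpha-catenin, by 0.11 and 0.08. Ctnnd1, p120-catenin, differed by -0.05 and -0.24. Jup, the plakoglobin shared by both kinds of junction, had -0.43 in constant hypoxia (standard error 0.17, limma adjusted p = 0.647) and 0.34 in intermittent hypoxia (standard error 0.19, adjusted p = 0.995). Of the actin-linked members, Pdlim1 had 0.39 and Ajuba 0.31 in intermittent hypoxia and Actn1 -0.34 in constant hypoxia, none of which passed. With neighbours removed, constant and intermittent hypoxia gave 0.19 and -0.05 for Ctnnb1, which turned sign in both, 0.31 and 0.05 for Ctnna1, 0.21 and -0.24 for Ctnnd1, and -0.17 and 0.12 for Jup. Pdlim1 then had 0.12 and Ajuba 0.25 in intermittent hypoxia, and Actn1 -0.19 in constant hypoxia. In intermittent hypoxia at 2 weeks, where Cdh1 was at 2.10, 11 of the 12 were positive with a median of 0.43, against a median of 0.00 over all features, and with neighbours removed the median was 0.20. At 1 week 10 of the 12 were negative (median -0.23), and at 4 weeks 7 were positive (median 0.12).

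The desmosome list had 3 of 15 genes measured besides Dsc2. Perp, a desmosomal membrane protein, differed by -0.49 in constant hypoxia (adjusted p = 0.647) and -0.11 in intermittent hypoxia, and Pkp4, a relative of the plakophilins, by 0.23 and 0.05. In intermittent hypoxia at 4 weeks, where Dsc2 stood at 1.37, Jup differed from normoxia by 1.39 (standard error 0.34), Pkp4 by -0.03 and Perp by -0.13. The size of the Jup standard error shows that 1 of the groups compared had Jup on a single array, and Dsc2 also rests on 1 array there. With neighbours removed Jup had 0.74 there, and over durations Perp had -0.25 in constant and -0.30 in intermittent hypoxia.

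Among 7 other cadherins measured of 31, Cdh22 differed by -0.66 in constant hypoxia (adjusted p = 0.647; -0.22 with neighbours removed), Clstn1, a calsyntenin, by -0.34, and Cdh5, the endothelial cadherin, by 0.15. The 9 tight junction genes ranged between -0.31 and 0.23 in constant and -0.26 and 0.17 in intermittent hypoxia, with Tjp1, the scaffold ZO-1, at 0.09 and 0.13. The 9 keratins and epithelial antigens had medians of -0.03 and 0.04, with Krt8 at -0.03 and 0.27 and Krt18, its usual partner in simple epithelia, at 0.21 and 0.22. All 8 regulators of epithelial identity were negative in constant hypoxia (median -0.29), lowest in Hdac2, a histone deacetylase, at -0.89 (adjusted p = 0.485), but with neighbours removed their median was -0.04, Hdac2 stood at 0.01 and 3 were positive.

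**Figure D4:**
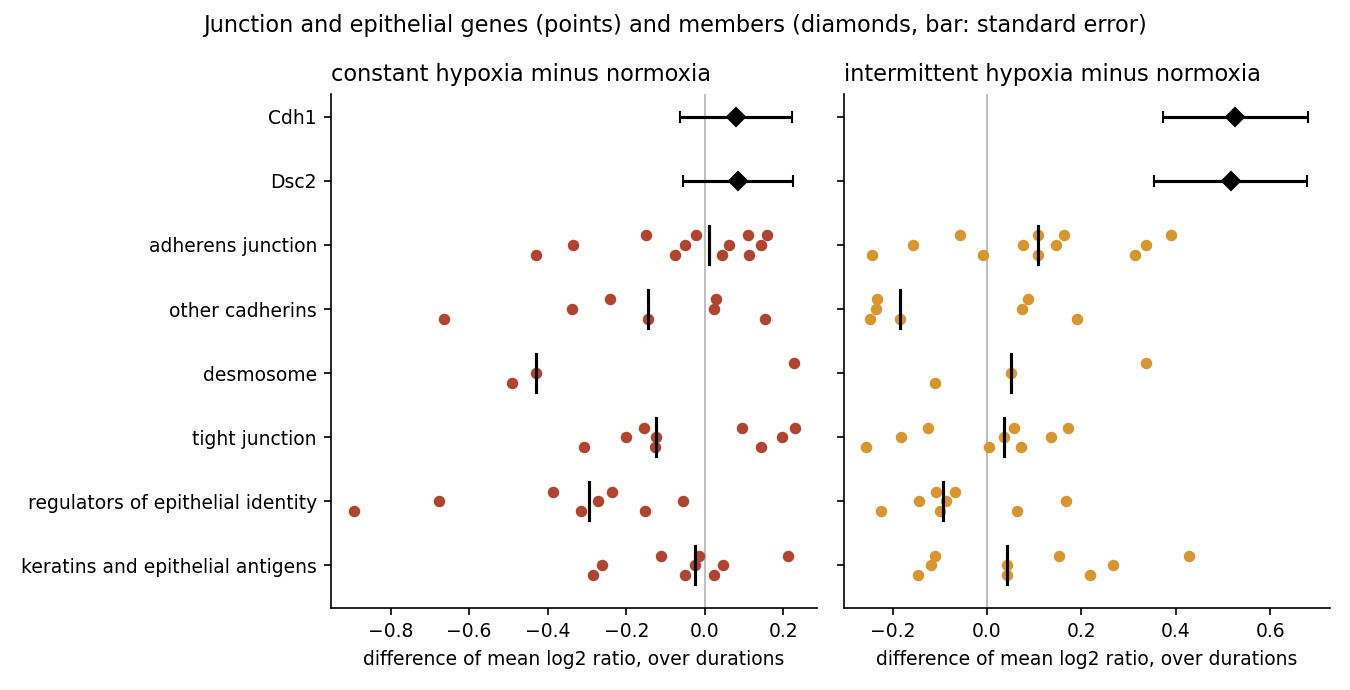
Difference of the mean log2 ratio from normoxia over durations (horizontal axis, log2) for Cdh1 and Dsc2 (diamonds with limma standard error) and for the measured genes of 6 lists (points; black bars are medians), constant hypoxia on the left and intermittent hypoxia on the right. Cdh1 and Dsc2 lie at 0.08 and 0.08 in constant hypoxia (each -0.69 on values as deposited) and at 0.53 and 0.52 in intermittent hypoxia; the list genes lie between -0.89 and 0.23 and between -0.26 and 0.43.

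The only calls on the lists were of mean ratios against 0, which compare the paired animals and not the conditions. In constant hypoxia, where 18.3% of all features were called and 13.2% with a negative sign, 9 of the 47 were, all negative: Actn1, Jup, Amotl2, Jam3, Cd24a, Spint2, Adam10, Hdac1 and Hdac2, with Cd24a at -0.70 (limma adjusted p = 0.00924) and Jup at -0.38 (adjusted p = 0.0386). In intermittent hypoxia (5.79% called, 4.28% positive and 1.51% negative) Pdlim1 at 0.65 (adjusted p = 0.0173) and Ajuba at 0.47 (adjusted p = 0.0436) were positive, and Cd24a at -0.55 (adjusted p = 0.0371) and Amotl2 at -0.41 (adjusted p = 0.0437) negative. In normoxia (3.53% called) limma called 0 of the 47, with 8 below 0.05 unadjusted. With neighbours removed 0 of the 9 calls in constant hypoxia were left.

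Dsc2 averaged 0.46 in intermittent hypoxia with the durations weighted equally, and Cdh1 0.43, and with neighbours removed 0.34 and 0.06. The fit called the Cdh1 average and not that of Dsc2, from which nothing is read. In constant hypoxia and in normoxia both averages lay between -0.10 and 0.03. Of the marker lists for kidney segments and other cells, 0 genes were measured for the loop of Henle, the collecting duct and nephron progenitors, and 1 to 4 for each of the others. Among them Hbb-b1, the red cell marker, at -1.42 (limma adjusted p = 0.0116) and Col1a2, a stromal collagen, at -0.55 (adjusted p = 0.0179) differed from 0 in constant hypoxia. With neighbours removed they stood at -0.28 (adjusted p = 0.642) and -0.17 (adjusted p = 0.485), and neither was called. Their part in the ratios of Cdh1 and Dsc2 was not tested.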

How the data were processed

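Per the labels' protocols, kidney RNA was extracted in Trizol and 60 ug per channel was labelled directly with Cy5 or Cy3. What the authors deposited is a log2 ratio for each probe on each array. No source used here names the background correction, the filters or the normalization. That the logarithm has base 2 follows from the numbers: as powers of 2, between 23.0% and 78.3% of 600 values on an array were ratios of whole numbers (denominator up to 600, relative tolerance 3e-09), and as powers of e or 10 at most 1%. No scanner signal was used, so neither intensity nor background is known, and the small number of arrays limits the precision. Arrays within a group carried different animals per the labels.

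Probes measured on 15 or more of the 18 arrays, with none of the 9 groups empty, were kept (6518 of 16128); probe 9238 was not. Probes of 1 symbol were averaged, giving 5751 features of which 4109 are named genes, and the median feature of every array was set to 0. A limma 3.58.1 model in R 4.3.3 fitted 9 group means (lmFit, eBayes), with Benjamini-Hochberg adjustment over all 5751 features and a threshold of 0.05, two-sided. The fit was tested on simulated data with independent noise for every feature and array. Such data lack the stretches of the probe numbering, so the test cannot show how the calls behave under them. Neighbour medians, correlations and figures were made in Python 3.11.15 with pandas 2.3.3. Symbols follow the platform annotation, and no genome build is named in the files, so neither coordinates nor sequences are printed.

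The members, the lists, the comparisons and the naming rule were chosen with earlier results of these data known. The rule named every list gene past the threshold and up to 4 genes of each junction list with the smallest p in each hypoxia regime minus normoxia, of which examples are given; the catenins, Tjp1 and Cdh5 were named for their role. The letters A and B were checked as pairs: deviations of same-letter arrays correlated between -0.37 and 0.44 over 36 pairs, above 0.1 in 8. The main fit left the letters out, but such correlations cannot exclude that arrays of a letter share something. Alternatives were other centrings, filters, a robust fit, a replicate block, arrays left out and other neighbourhoods.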

Additional observations from a re-analysis of the deposited data

Results flagged for a closer look

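Cdh1 at 1.74 on intermittent hypoxia 2 weeks B lay far from the other 4 intermittent hypoxia values of that gene. Those 4 come from 1 and 4 weeks, so the gap between arrays and the gap between durations cannot be told apart, and it is given as a description. It was the 1 value so far apart in 7 sets of 4 to 6 arrays of a condition. The limit behind this flag is a 1 in 20 limit for a single set, not for the 7 sets together. The genes were chosen with these values known, so no odds against chance are read from it. All 26 neighbouring probes were positive on that array as well.

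Several effects were opposite on every array at different durations or conditions, with 1 or 2 arrays in each group. No share of all features with such reversals is given, and these differences between effects were not tested. The constant hypoxia minus normoxia difference of Cdh1 changed by -0.65 between 2 and 4 weeks, and its intermittent hypoxia minus normoxia difference changed by -2.41 between the same weeks. With neighbours removed the differences at 2 and 4 weeks were 0.14 and -0.19 for constant hypoxia, and 0.81 and 0.03 for intermittent hypoxia, which are then no longer opposite. For Dsc2 the difference from normoxia changed by 0.67 between 1 and 4 weeks in constant hypoxia, and in intermittent hypoxia by 1.08 between 1 and 2 weeks and by 1.82 between 1 and 4 weeks. With neighbours removed, these changes were 0.21 in constant hypoxia, and 0.62 and 1.13 in intermittent hypoxia. The constant hypoxia differences at 1 and 4 weeks were then -0.11 and 0.10 (standard error 0.23 each). The change of Dsc2 over 4 weeks minus 1 week in constant hypoxia less that in intermittent hypoxia was -1.15, and that in intermittent hypoxia less that in normoxia was 1.82. With neighbours removed they were -0.93 and 1.13. The intermittent hypoxia values of Cdh1 at 2 weeks and of Dsc2 at 2 and 4 weeks rest on 1 array each.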

How the results depend on the processing

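Of 157 member differences under other settings 26 moved by more than the spread between replicate arrays, and of 389 with 1 array left out 8 did. On values as deposited the constant hypoxia minus normoxia differences were -0.69 over durations and -0.80, 0.13 and -1.40 at 1, 2 and 4 weeks for Cdh1, and -0.69, -1.16, -0.27 and -0.63 for Dsc2. With the running neighbour median removed, Cdh1 gave 0.21 over durations, 0.81 at 2 weeks and 0.032 at 4 weeks for intermittent hypoxia minus normoxia and 0.14 at 2 weeks for constant hypoxia. Dsc2 gave 0.21 and 0.10 at 2 and 4 weeks of constant hypoxia, -0.14 and 1.00 at 1 and 4 weeks of intermittent hypoxia, and for 4 weeks minus 1 week -0.30 in constant hypoxia and -0.51 in normoxia. With medians of 504 consecutive probe numbers removed, Cdh1 gave 1.54 at 2 weeks of intermittent hypoxia. Dsc2 then gave 0.30 at 2 weeks of constant hypoxia, -0.21 and 0.97 at 1 and 4 weeks of intermittent hypoxia, and -0.28 and -0.76 for 4 weeks minus 1 week in constant hypoxia and normoxia. Over 1 and 4 weeks only, chosen after seeing the data, intermittent hypoxia minus normoxia was -0.26 for Cdh1, and over 1 and 2 weeks only it was 0.089 for Dsc2. With the A and B letters as a replicate block, intermittent hypoxia minus normoxia was 0.55 for both Cdh1 and Dsc2, no member difference moved by more than the spread, and features called at 2 weeks of intermittent hypoxia numbered 2 in place of 5.

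With 1 array left out, the Cdh1 differences at 1 week ranged between -0.18 and 0.51 for constant and between -0.57 and 0.12 for intermittent hypoxia, its change in normoxia between 0.12 and 0.81 (normoxia 1 week A and B decide all of these), and the Dsc2 difference at 2 weeks of constant hypoxia between -0.31 and 0.26 (constant hypoxia 2 weeks A and B). Without intermittent hypoxia 2 weeks B for Cdh1, or 2 or 4 weeks B for Dsc2, the differences that use these groups have no value, and a filter on all 18 arrays leaves out both genes.

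Junction genes called were 47, 39 and 46 on values as deposited for constant hypoxia minus normoxia over durations and at 1 and 4 weeks, and 47 for its mean against 0. That mean had 0 calls with the running median removed, 3 with block medians, 5 with values on all arrays and 2 without the arrays of disagreeing labels, against 9. The intermittent hypoxia mean had 2 with the running median removed and with the replicate block, 0 with values on all arrays and 8 without disagreeing labels, against 4. The normoxia mean had 2 with the running median removed, 5 with block medians, 1 with no minimum of arrays and 7 without disagreeing labels, against 0. At 2 weeks of intermittent hypoxia minus normoxia there was 1 with the running median removed and 8 without disagreeing labels, against 0. With 1 array left out, these calls ranged from 0 to 17, 0 to 7 and 0 to 3 for the means in constant hypoxia, intermittent hypoxia and normoxia. Each constant hypoxia array moved the first (to 17 without 4 weeks B and to 3 or fewer without any other), each intermittent hypoxia array, both constant hypoxia arrays of 1 and of 2 weeks and both normoxia arrays of 4 weeks the second, and constant hypoxia 4 weeks A and B the third. They ranged from 0 to 8 at 2 weeks of intermittent hypoxia minus normoxia (8 without intermittent hypoxia 2 weeks A, with 608 calls over all features), and from 0 to 7, 0 to 10 and 0 to 11 for constant hypoxia minus normoxia over durations, at 4 weeks, and for 4 weeks minus 1 week in constant hypoxia, each time highest without constant hypoxia 4 weeks B, with 567, 658 and 752 calls over all features. Over all features, values as deposited called 5570, 4466 and 5247 in constant hypoxia minus normoxia over durations and at 1 and 4 weeks, and at 2 weeks of intermittent hypoxia minus normoxia 44 were called with block medians, 23 with the running median removed and 777 without disagreeing labels, against 5. Means against 0 called 2, 75 and 54 features in constant hypoxia, intermittent hypoxia and normoxia with the running median removed, against 1050, 333 and 203. The cause of these changes was not tested.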
